A study of Mus musculus with 10 samples.

Results

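The genes described here encode the ligands and receptors of the classical axon guidance systems. They were chosen by symbol from a table of 21937 mouse genes, and 71 symbols matched. The ligands were 5 ephrin-A genes, 3 ephrin-B genes, 7 secreted class 3 semaphorins, 13 membrane semaphorins of classes 4 to 7, 3 Slit genes, 4 netrins and 2 netrin-G genes. The receptors were 9 EphA genes, 5 EphB genes, 2 neuropilins, 9 plexins, 4 Robo genes, and the netrin receptors Dcc and Unc5a to Unc5d, 5 genes in all.

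Guidance cues steer the growing tip of an axon by attraction or repulsion. Ephrins are held on the cell surface and bind Eph receptor tyrosine kinases on neighbouring cells, class 3 semaphorins are secreted and signal through neuropilins paired with plexins, Slits signal through Robo receptors, and netrins attract axons through Dcc or repel them through Unc5 receptors. In the embryonic spinal cord the floor plate secretes netrin and Slit proteins, and many of the same molecules also act outside the nervous system, in blood vessels, somites and mesenchyme.

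The data are total RNA profiles of differentiating mouse embryonic stem (ES) cells with a C57BL/6 background, in 10 libraries with 1 per condition and day. In serum-free culture (SFEB, a floating-aggregate method that favours neural fates) the cells were Tet3 knockout (KO) cells given Dkk, a secreted inhibitor of Wnt receptor binding, untreated KO cells, and wild-type (WT) cells, each on day 10 and day 6. In medium with fetal bovine serum (FBS), described in the labels as not permissive for a neural fate, they were Tet3-overexpressing and control cells, each on day 7 and day 4. Tet3 is a dioxygenase that oxidises 5-methylcytosine in DNA. The KO line came from mice with floxed Tet3 alleles, and the floxed exon was removed by transient Cre expression. The labels give neither the number of clones nor the construct used for overexpression, and neither the dose nor the member of the Dkk family. Without replicates inside a day, differences between single libraries carry no test.

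Tet3 itself was at 13.12 RPKM in KO plus Dkk, 14.32 in KO and 10.22 in WT cells on day 10, and at 7.64, 6.59 and 8.11 RPKM in KO plus Dkk, KO and WT cells on day 6. RPKM is the number of reads of a gene scaled by its transcript length and by the library's total, and a value over the whole gene does not check the loss of 1 exon, so the knockout label was not checked by these values. In FBS culture Tet3 was at 14.11 RPKM in overexpressing and 5.87 in control cells on day 7, and at 12.52 and 0.96 RPKM in overexpressing and control cells on day 4. Estimated depths ran from 10200000 to 43500000 reads per library, and 11028 to 12152 genes per library reached 1 RPKM. The cells are labelled embryonic stem cells, but the summed RPKM of 10 pluripotency markers was 18.19 to 88.43 in the SFEB libraries, against 934.53 to 3712.54 in the FBS libraries. The summed RPKM of 15 neuron markers was 2219.89 to 2518.67 in SFEB libraries of day 10 and 132.14 to 258.13 in those of day 6.

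Nearly all guidance genes were detected in at least 1 library. A level of 1 RPKM was reached by 69 of the 71 genes somewhere in the series, by 67 in SFEB and by 56 in FBS libraries, and the comparisons below cover those genes. Epha6, an ephrin-A receptor, peaked at 0.65 RPKM and Plxnb3, a plexin, at 0.03. Robo4, a Robo family member best known from endothelium, and Sema3g, a class 3 semaphorin, reached 1 RPKM in 1 library of the series, with 1.5 and 1.15 RPKM in the control library of day 7. A gene that passes through a single library has its direction there set by that limit. In SFEB culture this held for Ntn5 and Sema3d (KO on day 10) and for Sema3b and Sema3e (KO on day 6). In FBS culture it held for Ephb1, Ntn3, Robo2, Robo4, Sema3g and Unc5c (control on day 7), Slit1 (overexpressing on day 7) and Epha8 (control on day 4). The number of guidance genes at 1 RPKM or more was 62 in KO plus Dkk, 64 in KO and 61 in WT cells on day 10, and 51, 53 and 50 in KO plus Dkk, KO and WT cells on day 6. In FBS culture it was 46 in overexpressing and 50 in control cells on day 7, and 40 and 45 in overexpressing and control cells on day 4.

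**Figure D1:**
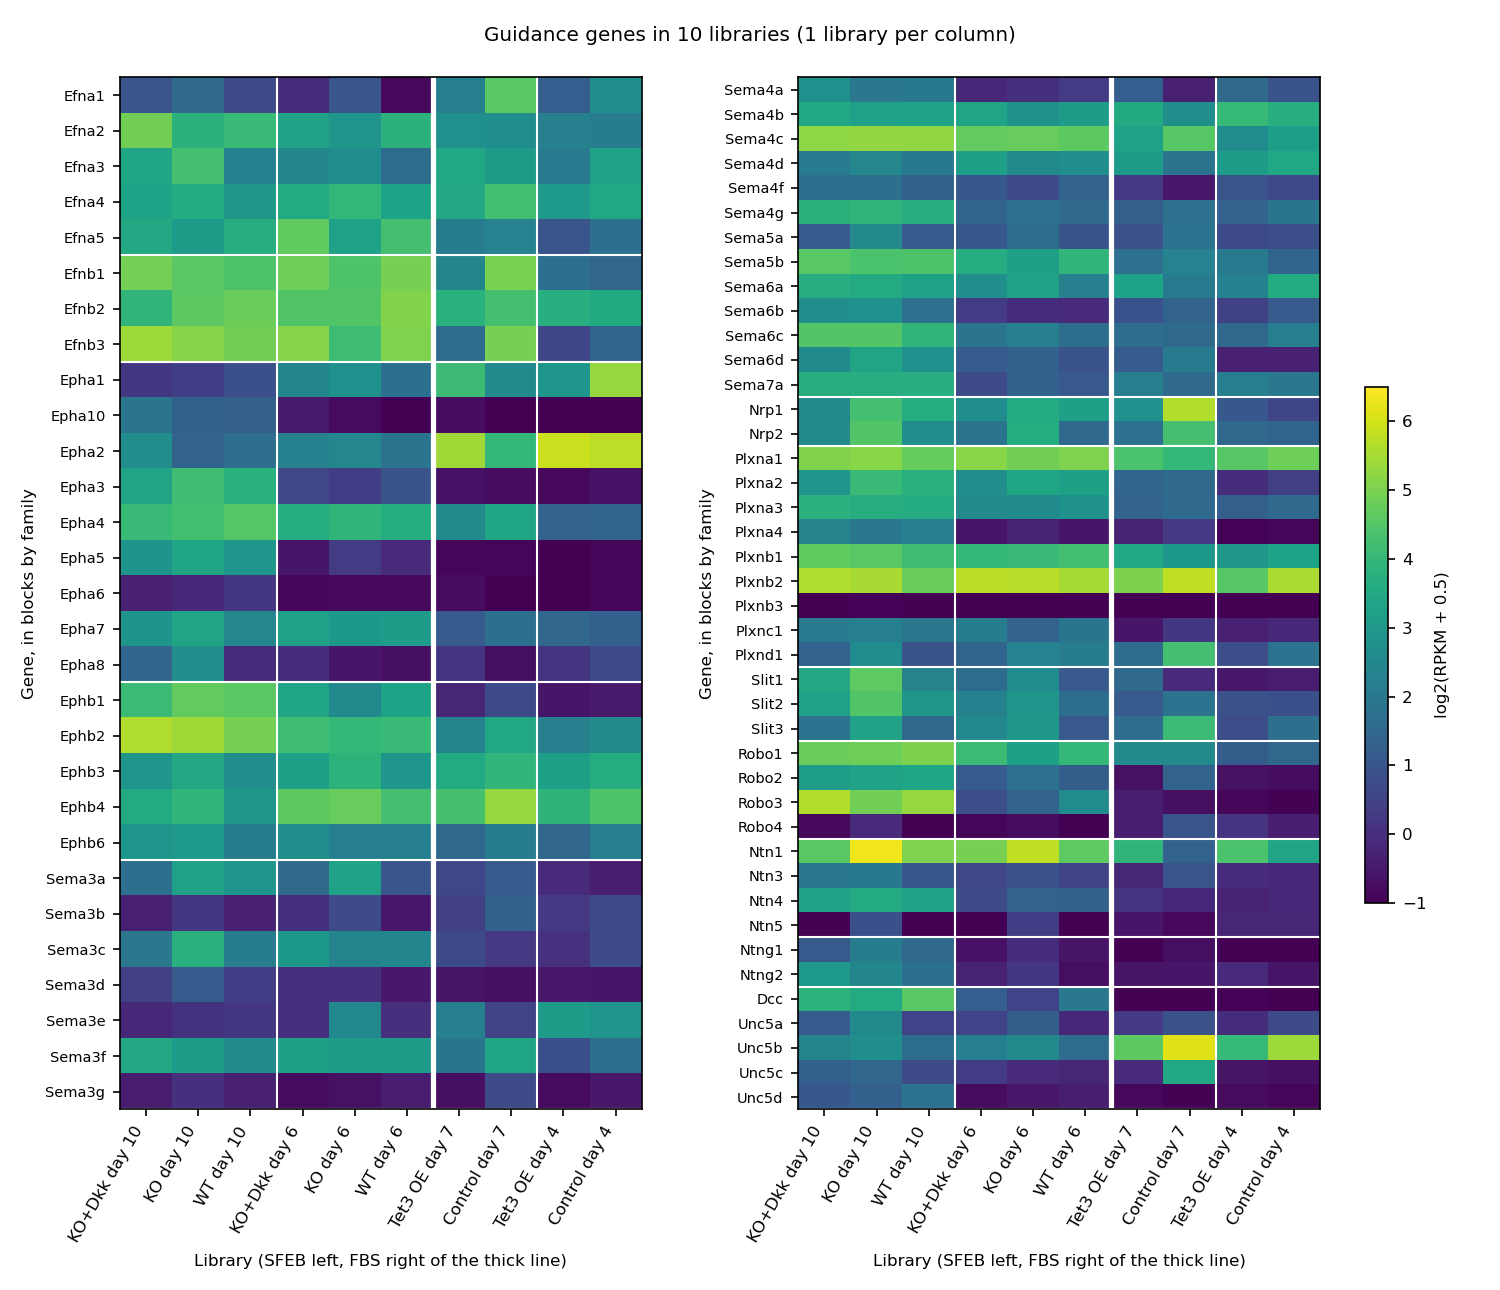
Heat map of the 71 guidance genes (rows, in blocks by family) in the 10 libraries (columns), coloured by log2(RPKM + 0.5). Epha3, Epha5, Dcc and Robo3 are bright in the SFEB libraries of day 10 and dark in all 4 FBS libraries, and Unc5b is bright in the FBS libraries, at 15.91 RPKM or more, against 5.87 RPKM at most in SFEB.

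The genes of highest mean level were 2 plexins, 1 netrin, 1 semaphorin and 1 ephrin. Plxnb2, a plexin that serves as a receptor for class 4 semaphorins, was at 47.79, 45.62 and 27.78 RPKM in KO plus Dkk, KO and WT cells on day 10 and at 51.98, 51.45 and 44.44 RPKM in KO plus Dkk, KO and WT cells on day 6. In FBS culture Plxnb2 was at 31.69 RPKM in overexpressing and 54.19 in control cells on day 7, and at 22.89 and 46.15 RPKM in overexpressing and control cells on day 4. Its level varied little, with the 2 overexpressing libraries among the 3 lowest.

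Plxna1, a co-receptor for class 3 semaphorins, was at 33.48, 35.33 and 25.82 RPKM in KO plus Dkk, KO and WT cells on day 10 and at 35.53, 28.99 and 32.42 RPKM in KO plus Dkk, KO and WT cells on day 6. In FBS culture Plxna1 was at 20.24 RPKM in overexpressing and 15.58 in control cells on day 7, and at 22.77 and 28.01 RPKM in overexpressing and control cells on day 4. Highest and lowest library of Plxna1 differed 2.24-fold on the RPKM + 0.5 scale.

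Sema4c, a membrane semaphorin that binds plexin-B2, was at 36.83, 38.10 and 37.36 RPKM in KO plus Dkk, KO and WT cells on day 10 and at 25.43, 26.64 and 23.82 RPKM in KO plus Dkk, KO and WT cells on day 6. The SFEB conditions were close to each other on each day. In FBS culture Sema4c was at 9.39 RPKM in overexpressing and 23.04 in control cells on day 7, and at 5.74 and 8.58 RPKM in overexpressing and control cells on day 4.

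Between day 6 and day 10 of SFEB culture many guidance genes rose. An additive model across all 10 libraries (limma on log2(RPKM + 0.5), with terms for culture, day, KO, Dkk and overexpression) called 33 of 69 guidance genes higher and 1 lower on day 10 than on day 6 at an adjusted p under 0.05. Over all 13757 genes tested, 27.0% were called higher and 16.4% lower. Epha5, Epha10, Ntng1, Ntng2, Plxna4, Unc5d and Sema3d reached 1 RPKM in SFEB libraries of day 10 alone. The limit set their direction, and they lend no support to the count of 33. The model has 3 residual degrees of freedom, and its spread is the difference between days or conditions of 1 effect, not a spread between replicate cultures.

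Robo3, a divergent Robo family member that commissural axons need to cross the midline, was at 48.73, 29.40 and 39.56 RPKM in KO plus Dkk, KO and WT cells on day 10, and at 1.23, 2.13 and 5.70 RPKM in KO plus Dkk, KO and WT cells on day 6. In FBS culture Robo3 was at 0.28 RPKM in overexpressing and 0.12 in control cells on day 7, and at 0.05 and 0.02 RPKM in overexpressing and control cells on day 4. All 3 day 10 libraries lay above every day 6 library, and Robo3 rose by 3.68 on the log2 scale (SE 0.39, limma adjusted p = 0.0021), the widest spread of all members over the 10 libraries (94.7-fold on the RPKM + 0.5 scale).

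Dcc, the attractive netrin receptor, was at 13.79, 11.46 and 23.36 RPKM in KO plus Dkk, KO and WT cells on day 10, and at 1.88, 0.91 and 3.48 RPKM in KO plus Dkk, KO and WT cells on day 6. In FBS culture Dcc was at 0.02 RPKM in overexpressing cells and listed at 0.00 in control cells on day 7, and at 0.03 and 0.01 RPKM in overexpressing and control cells on day 4. Dcc rose by 2.75 between the days of SFEB culture (SE 0.15, limma adjusted p = 0.000437), and WT cells had the highest value on both days.

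Among Eph receptors, Epha5, a receptor of ephrin-A in topographic mapping, was at 6.89, 10.13 and 7.21 RPKM in KO plus Dkk, KO and WT cells on day 10, and at 0.18, 0.75 and 0.44 RPKM in KO plus Dkk, KO and WT cells on day 6. In FBS culture Epha5 was at 0.05 RPKM in overexpressing and 0.04 in control cells on day 7, and at 0.01 and 0.05 RPKM in overexpressing and control cells on day 4. Its day effect was 3.19 on the log2 scale (SE 0.14, limma adjusted p = 0.000297), the lowest p among guidance genes. Epha5 passed the 1 RPKM limit through day 10 libraries alone, which set its direction.

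Epha3, a related ephrin-A receptor, was at 9.85, 17.76 and 13.31 RPKM in KO plus Dkk, KO and WT cells on day 10, and at 1.01, 0.80 and 1.38 RPKM in KO plus Dkk, KO and WT cells on day 6. In FBS culture Epha3 was at 0.14 RPKM in overexpressing and 0.09 in control cells on day 7, and at 0.06 and 0.14 RPKM in overexpressing and control cells on day 4. It rose by 3.16 between the days of SFEB culture (SE 0.23, limma adjusted p = 0.000825).

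Ephb1, an ephrin-B receptor, was at 16.73, 25.54 and 23.30 RPKM in KO plus Dkk, KO and WT cells on day 10, and at 10.34, 5.39 and 9.63 RPKM in KO plus Dkk, KO and WT cells on day 6. In FBS culture Ephb1 was at 0.37 RPKM in overexpressing and 1.11 in control cells on day 7, and at 0.18 and 0.23 RPKM in overexpressing and control cells on day 4. It rose by 1.35 (SE 0.31, limma adjusted p = 0.0189), a call lost with no filter on low values (limma adjusted p = 0.0977, the highest of 9 settings, whose lowest was 0.0113). Ephb4, an ephrin-B2 receptor best known from veins, was the gene that fell, by 1.07 (SE 0.16, limma adjusted p = 0.00529). It was at 11.42, 14.61 and 7.28 RPKM in KO plus Dkk, KO and WT cells on day 10 and 24.12, 26.55 and 19.15 RPKM in KO plus Dkk, KO and WT cells on day 6.

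Other genes called higher on day 10 were the membrane semaphorins Sema4a, Sema4c, Sema4g, Sema5b, Sema6b, Sema6c, Sema6d and Sema7a, the plexins Plxna2, Plxna3 and Plxna4, the netrin-G genes Ntng1 and Ntng2, and the netrins Ntn3 and Ntn4. So were Robo1, Robo2, Unc5a, Unc5d, Slit1, Slit2, Sema3d, Ephb2, Epha8, Epha10, Efna1, Efna2 and Efna3. Sema7a, a semaphorin anchored to the membrane by lipid, was at 12.17, 12.20 and 12.52 RPKM in KO plus Dkk, KO and WT cells on day 10 and at 1.17, 2.01 and 1.64 RPKM in KO plus Dkk, KO and WT cells on day 6. It rose by 2.62 (SE 0.17, limma adjusted p = 0.000563). The 3 ephrin-B ligands were not called in either direction.

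**Figure D2:**
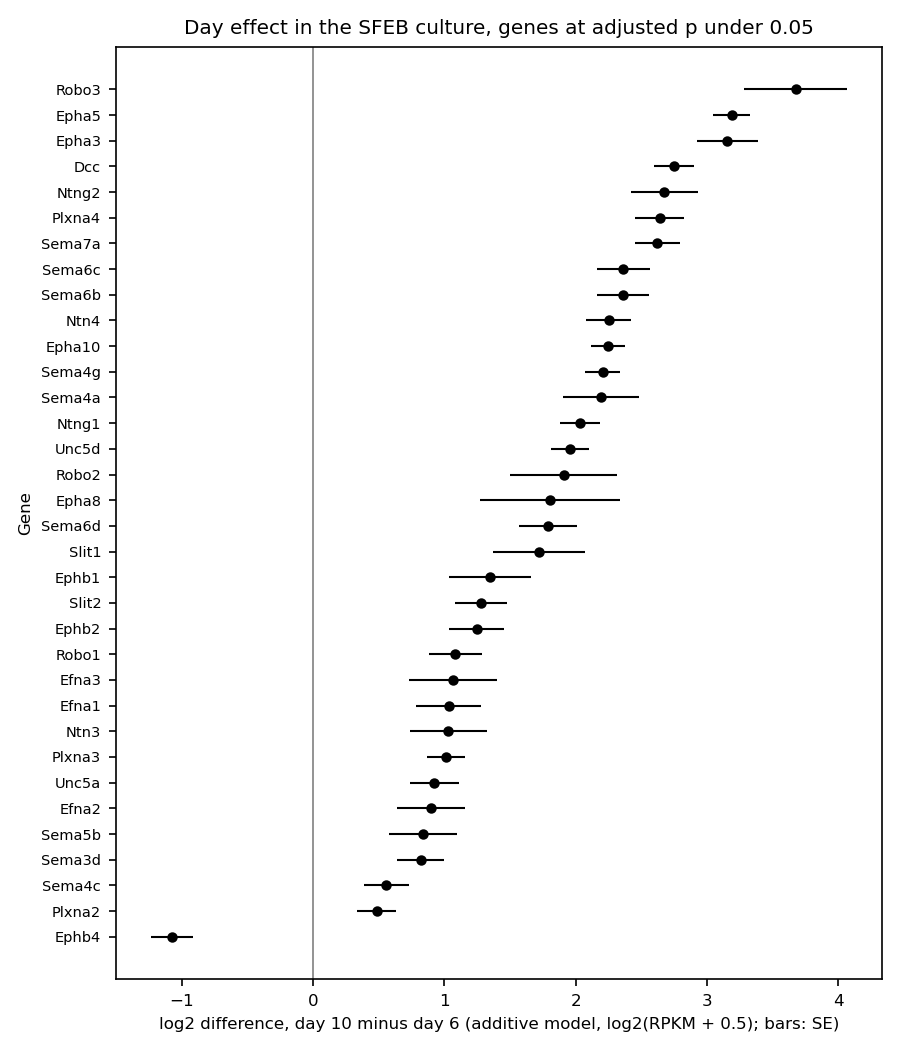
Day effect in the SFEB culture (log2 difference, day 10 minus day 6, points, with SE as bars) of the 34 guidance genes at a limma adjusted p under 0.05. Robo3 leads with 3.68, and Ephb4, at -1.07, is the gene below 0. Epha5, Epha10, Ntng1, Ntng2, Plxna4, Unc5d and Sema3d passed the 1 RPKM limit through day 10 libraries alone, which set their direction.

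Between the days, single-condition ratios gave 25, 32 and 25 of 67 guidance genes 2-fold or more higher on day 10 than on day 6 in KO plus Dkk, KO and WT cells, beside 17.6%, 21.1% and 16.9% of 12912 genes compared. Lower by 2-fold or more were 5, 3 and 2 guidance genes in KO plus Dkk, KO and WT cells, beside 6.82%, 8.01% and 7.98% of all genes. In KO cells Sema3d (higher) and Sema3e (lower) passed the 1 RPKM limit through a single library, which set their direction. Epha5, Epha8, Epha10, Ntng1, Ntng2, Plxna4, Sema4a, Sema6b, Unc5c and Unc5d reached 1 RPKM in SFEB culture on day 10 alone. Where they count as higher, the limit set their direction, and they lend no support to these counts. The summed neuron markers were also higher on day 10 in each condition, and their part in the guidance genes' rise was not tested. In bulk RNA, more cells of a type and more RNA per cell cannot be told apart.

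Set against WT cells, KO cells had levels 2-fold or more higher on both days of the 3 Slit genes, of 2 of 4 netrins (Ntn1 and Ntn5, but not Ntn3 or Ntn4), of 1 of 2 neuropilins (Nrp2), and of Unc5a and Efna3. Of 67 guidance genes compared, 12 were 2-fold or more higher in KO than in WT cells on day 10 and 0 were lower, beside 8.28% higher and 1.96% lower of all genes. On day 6, 14 were higher and 2 lower, beside 4.89% and 2.18% of all genes. Sema3b and Sema3e passed the 1 RPKM limit through the KO library of day 6 alone and lend no support to that count. Epha8 and Unc5a reached 1 RPKM in SFEB libraries of KO cells alone, with or without Dkk. They lend no support to the counts that hold them, Unc5a on each day and Epha8 on day 10. The median log2 ratio of guidance genes was 0.45 on day 10 and 0.21 on day 6, beside 0.06 and 0.00 over all genes. On both days 8 were higher (Efna3, Nrp2, Ntn1, Ntn5, Slit1, Slit2, Slit3 and Unc5a) and 0 lower, beside 2.11% and 0.372% of all genes. Ntn5 passed the 1 RPKM limit through the KO library of day 10 alone. Neither Ntn5 nor Unc5a lends support to the both-day count or to the counts of each day. With a pseudocount of 1 the both-day count was 6, without Ntn5 and Efna3.

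All 3 Slit genes, which encode the secreted repellents of Robo receptors, were among them. Slit1 was at 11.11, 24.64 and 4.64 RPKM in KO plus Dkk, KO and WT cells on day 10, and at 2.67, 5.65 and 1.64 RPKM in KO plus Dkk, KO and WT cells on day 6. Slit2 was at 9.36, 21.76 and 7.33 RPKM in KO plus Dkk, KO and WT cells on day 10, and at 4.40, 6.95 and 2.79 RPKM in KO plus Dkk, KO and WT cells on day 6. Slit3 was at 3.14, 9.50 and 2.36 RPKM in KO plus Dkk, KO and WT cells on day 10, and at 5.12, 7.28 and 1.65 RPKM in KO plus Dkk, KO and WT cells on day 6. For each Slit gene KO was the highest and WT the lowest library on each day. The log2 ratios of KO over WT were 2.29, 1.51 and 1.81 for Slit1, Slit2 and Slit3 on day 10, and 1.52, 1.18 and 1.86 on day 6.

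In FBS culture Slit1 was at 2.45 RPKM in overexpressing and 0.43 in control cells on day 7, and at 0.20 and 0.24 RPKM in overexpressing and control cells on day 4. Slit2 was at 1.72 RPKM in overexpressing and 3.11 in control cells on day 7, and at 1.33 and 1.28 RPKM in overexpressing and control cells on day 4. Slit3 was at 2.69 RPKM in overexpressing and 16.86 in control cells on day 7, and at 1.22 and 2.93 RPKM in overexpressing and control cells on day 4. The 3 Slit genes thus did not share a direction in the FBS culture on day 7.

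Ntn1, the secreted cue that the floor plate uses to attract axons, was at 23.51, 79.89 and 32.55 RPKM in KO plus Dkk, KO and WT cells on day 10, and at 30.63, 54.49 and 24.52 RPKM in KO plus Dkk, KO and WT cells on day 6. The log2 ratio of KO over WT was 1.28 on day 10, with a counting interval of 1.22 to 1.37, and 1.14 on day 6, with an interval of 1.06 to 1.24. Counting intervals are 95% Clopper-Pearson intervals from estimated reads, carry no pseudocount and cover counting error alone, not the spread between cultures. In FBS culture Ntn1 was at 14.65 RPKM in overexpressing and 2.09 in control cells on day 7, and at 20.14 and 9.97 RPKM in overexpressing and control cells on day 4. KO on day 10 was its highest library and control on day 7 its lowest.

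Ntn5, a short netrin-like gene, was at 0.02 RPKM in KO plus Dkk, 1.28 in KO and listed at 0.00 in WT cells on day 10, and at 0.80 RPKM in KO cells and listed at 0.00 in both KO plus Dkk and WT cells on day 6. In FBS culture Ntn5 was at 0.18 RPKM in overexpressing and 0.07 in control cells on day 7, and at 0.37 RPKM in both overexpressing and control cells on day 4. No fold is given against the libraries at 0.00, and the KO values rest on an estimated 22 reads on day 10 and 13 on day 6. Sec1, which overlaps Ntn5, was at 1.22 RPKM in KO and 0.05 in WT cells on day 10 and at 0.62 and 0.10 RPKM in KO and WT cells on day 6, and reads of the overlapping genes were not told apart here.

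Nrp2, a neuropilin and co-receptor for class 3 semaphorins, was at 5.28, 21.37 and 6.07 RPKM in KO plus Dkk, KO and WT cells on day 10, and at 3.20, 11.98 and 2.48 RPKM in KO plus Dkk, KO and WT cells on day 6. KO stood apart on both days, with log2 ratios over WT of 1.74 on day 10 (counting interval 1.66 to 1.97) and 2.07 on day 6 (2.03 to 2.52). In FBS culture Nrp2 was at 3.06 RPKM in overexpressing and 18.94 in control cells on day 7, and at 2.33 and 2.17 RPKM in overexpressing and control cells on day 4.

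The netrin receptors diverged. Unc5a, a repulsive netrin receptor, was at 1.78, 5.57 and 0.93 RPKM in KO plus Dkk, KO and WT cells on day 10, and at 0.92, 1.80 and 0.39 RPKM in KO plus Dkk, KO and WT cells on day 6. The log2 ratios of KO over WT were 2.09 on day 10 and 1.37 on day 6. In FBS culture Unc5a was at 0.70 RPKM in overexpressing and 1.30 in control cells on day 7, and at 0.49 and 1.18 RPKM in overexpressing and control cells on day 4. Dcc, by contrast, had log2 ratios of KO over WT of -0.996 on day 10, just short of the 2-fold limit, and -1.5 on day 6. Robo3 was the other gene lower in KO cells on day 6, with a ratio of -1.24, and had a ratio of -0.42 on day 10.

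Efna3, an ephrin-A ligand, was at 10.08, 18.80 and 4.45 RPKM in KO plus Dkk, KO and WT cells on day 10, and at 4.97, 5.92 and 2.64 RPKM in KO plus Dkk, KO and WT cells on day 6. KO was highest and WT lowest on each day, with log2 ratios of KO over WT of 1.96 on day 10 and 1.03 on day 6. In FBS culture Efna3 was at 10.59 RPKM in overexpressing and 8.0 in control cells on day 7, and at 3.87 and 9.47 RPKM in overexpressing and control cells on day 4.

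Other genes were 2-fold or more apart between KO and WT cells on 1 day. On day 6 these were Sema3e at 5.20 RPKM in KO and 0.51 in WT cells, Sema3a at 9.56 and 1.52 in KO and WT cells, and Sema3b at 1.13 and 0.20 RPKM in KO and WT cells. They were also Efna1 at 1.53 and 0.06, Epha1 at 6.32 and 2.87, and Sema6a at 9.41 and 4.35 RPKM in KO and WT cells. The value of Efna1 in WT cells corresponds to about 1 estimated read (0.906), and its counting interval of the log2 ratio runs from 1.89 to 9.87. On day 10 they were Epha8 at 6.09 RPKM in KO and 0.47 in WT cells, Plxnd1 at 5.58 and 1.41, Sema3c at 13.01 and 3.91, and Sema5a at 5.24 and 1.72 RPKM in KO and WT cells. The class 3 semaphorins among these were Sema3a, Sema3b and Sema3e on day 6 and Sema3c on day 10, and Sema3e was at 0.56 RPKM in KO and 0.67 in WT cells on day 10. Sema3b and Sema3e passed the 1 RPKM limit through the KO library of day 6 alone, and with a pseudocount of 1 Sema3b, Epha1 and Sema6a fell short of 2-fold on day 6. Epha8 reached 1 RPKM in SFEB culture in KO libraries of day 10 alone, with and without Dkk.

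**Figure D3:**
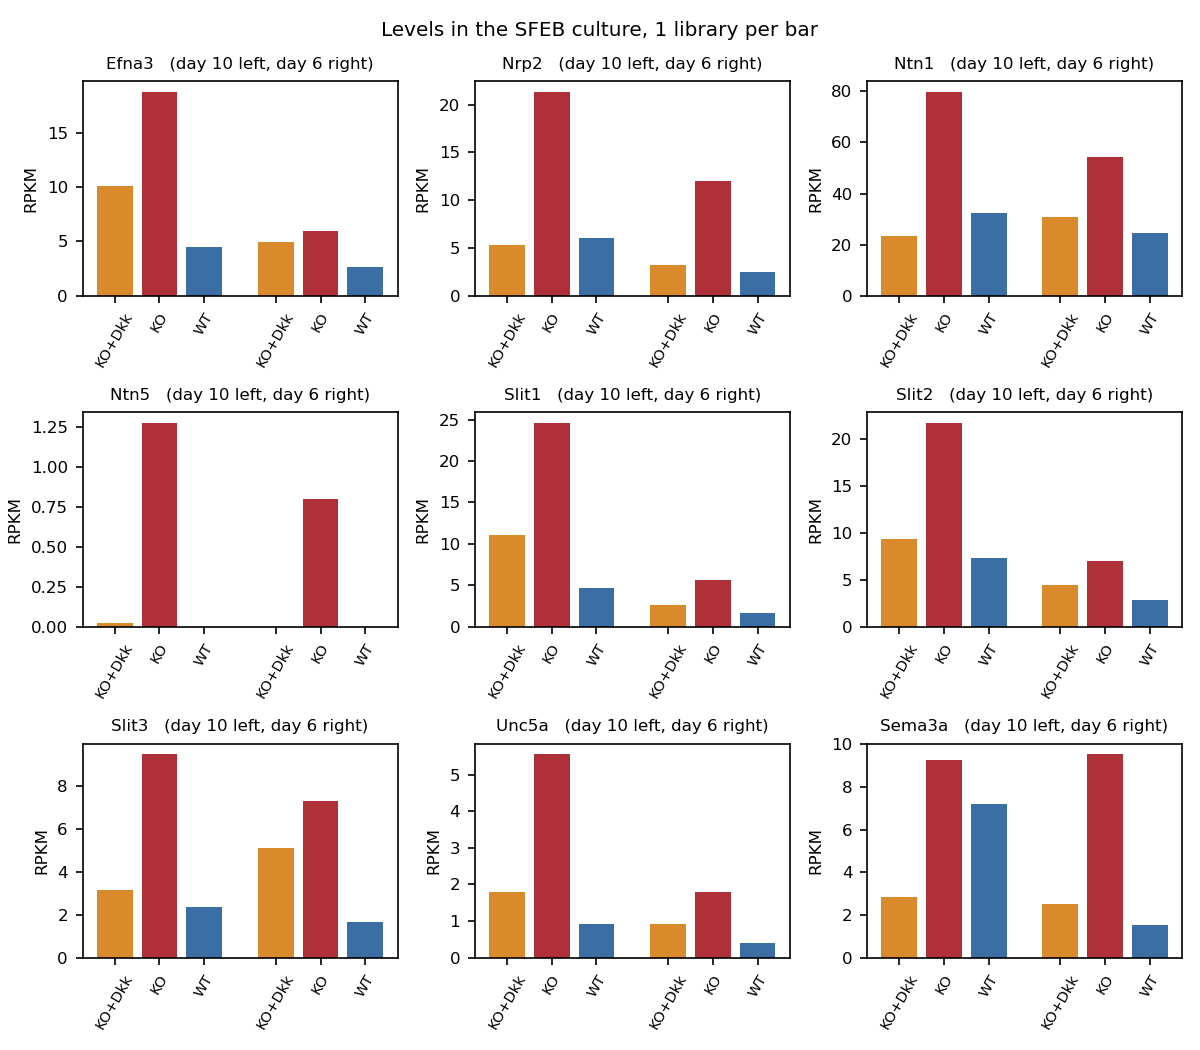
RPKM in the 6 SFEB libraries (1 library per bar) of the 8 guidance genes 2-fold or more higher in KO than in WT cells on both days, and of Sema3a. KO is the highest bar on each day in all 9 panels, for example 79.89 RPKM for Ntn1 on day 10, against 32.55 in WT cells. The 8 genes were picked for KO above WT cells, and Sema3a is 2-fold or more lower with Dkk on both days. That part of the order follows from the choice of genes.

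The additive limma model called 0 of 69 guidance genes for KO over WT at an adjusted p under 0.05, in a model that called 0.08% of all genes higher and 0.00727% lower. At an unadjusted p under 0.05 there were 22 of 69, beside 13.8% of all genes. Unc5a had an effect of 1.73 (SE 0.23, limma adjusted p = 0.0998). Slit2 had an effect of 1.34 (SE 0.24, limma adjusted p = 0.151) and Dcc one of -1.25 (SE 0.19, limma adjusted p = 0.116). Nrp2, at 1.90 (SE 0.56, limma adjusted p = 0.258), passed when the SFEB libraries were fitted alone (limma adjusted p = 0.0498, the lowest of 9 settings, whose highest was 0.507). Ntn5, whose direction the filter set, passed with a pseudocount of 0.1 (limma adjusted p = 0.0414, the lowest of 8 settings, whose highest was 0.178) and not with 0.5 (limma adjusted p = 0.089).

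Marker lists of other cells also differed between KO and WT libraries, some higher and some lower in KO cells. The summed RPKM of 14 fibroblast and matrix markers was 752.44 in KO and 55.55 in WT cells on day 10, and 70.05 and 21.99 in KO and WT cells on day 6. In this list 14 of 14 genes were 2-fold or more higher on day 10 and 6 of 14 on day 6. The sum of 12 paraxial mesoderm markers was 32.52 in KO and 17.87 in WT cells on day 10, and 295.1 and 5.61 in KO and WT cells on day 6. Here 6 of 12 were higher and 1 (T) was lower on day 10, and 12 of 12 were higher on day 6. The sum of 8 floor plate and ventral midline markers was 92.64 in KO and 33.61 in WT cells on day 10, and 29.0 and 6.69 in KO and WT cells on day 6. On each day 5 of 8 were higher, and on day 10 1 was lower (Lmx1a, at 3.29 RPKM in KO and 13.55 in WT cells). In the sums of all 3 lists the KO library was above the WT library on each day. Shh, which marks the floor plate, was at 13.30 RPKM in KO and 4.98 in WT cells on day 10, and at 6.60 and 0.33 RPKM in KO and WT cells on day 6. The sum of 12 endothelial markers was 22.03 in KO and 6.80 in WT cells on day 10, and 11.80 and 3.32 in KO and WT cells on day 6, with 4 of 9 compared higher on day 10 and 3 of 9 on day 6. Markers at 0 were Msgn1 and Mesp1 in both KO and WT cells on day 10 and Ferd3l in both on day 6, and in WT cells alone also Etv2 on day 10 and Msgn1, Emcn, Erg and Cldn5 on day 6. Lists of neural and pluripotent cells had genes lower in KO cells. The sum of 15 neuron markers was 132.14 in KO and 258.13 in WT cells on day 6, with 1 higher and 3 lower (Tubb3, Ina and Nhlh1) and a median log2 ratio of -0.80, beside the lower Dcc and Robo3 on that day. On day 10 it was 2219.89 in KO and 2400.66 in WT cells, with 2 higher and 0 lower. The sum of 12 neural progenitor markers was 645.13 in KO and 887.65 in WT cells on day 6, with 0 higher and 3 lower (Sox1, Otx2 and Fabp7), and 2045.71 and 1579.62 in KO and WT cells on day 10, with 1 higher and 1 lower. The sum of 10 pluripotency markers was 18.19 in KO and 53.63 in WT cells on day 10, with 1 of 8 compared higher and 5 lower. The part of these cell types in the guidance genes' differences was not tested.

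The start regions of 3 of the genes higher in KO cells on both days are shown as a description of their sequence. Whether CpG sites or Tet3 at these regions had a part in the KO differences was not tested. The sequences are from RefSeq (build GRCm38.p6), run 5′ to 3′ on the gene's own strand from 250 bases before to 50 bases after the start, and have each CpG in capitals.
Slit2 promoter, chr5:47982905-47983204, plus strand: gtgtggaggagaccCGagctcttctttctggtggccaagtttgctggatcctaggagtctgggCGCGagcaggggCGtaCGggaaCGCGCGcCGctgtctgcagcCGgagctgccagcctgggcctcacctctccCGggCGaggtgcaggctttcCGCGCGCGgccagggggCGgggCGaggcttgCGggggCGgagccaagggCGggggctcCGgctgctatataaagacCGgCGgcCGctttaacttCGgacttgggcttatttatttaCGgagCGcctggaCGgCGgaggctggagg
Nrp2 promoter, chr1:62703067-62703366, plus strand: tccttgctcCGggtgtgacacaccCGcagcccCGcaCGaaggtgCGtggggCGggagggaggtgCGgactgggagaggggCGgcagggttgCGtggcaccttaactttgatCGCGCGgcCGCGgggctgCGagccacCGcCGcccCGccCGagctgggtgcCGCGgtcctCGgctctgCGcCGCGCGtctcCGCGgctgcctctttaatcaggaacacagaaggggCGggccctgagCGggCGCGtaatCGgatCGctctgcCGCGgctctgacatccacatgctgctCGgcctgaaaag
Ntn5 promoter, chr7:45683772-45684071, plus strand: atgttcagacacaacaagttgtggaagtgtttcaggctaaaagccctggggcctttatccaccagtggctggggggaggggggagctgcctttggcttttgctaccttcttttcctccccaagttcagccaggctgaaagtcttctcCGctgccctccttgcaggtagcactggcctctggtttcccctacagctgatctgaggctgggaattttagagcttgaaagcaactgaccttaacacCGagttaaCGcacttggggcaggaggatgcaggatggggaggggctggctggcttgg

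The Slit2 region held 30 CpG sites, the Nrp2 region 37 and the Ntn5 region 3. Over the 77 promoters listed for 61 of the 71 genes the median was 19 CpG sites in 300 bases (range 2 to 56), beside 13 over 21263 promoters of protein-coding genes. The Nrp2 region held the letters CTTTGAT, the core that TCF/LEF factors of the Wnt pathway bind, starting at position -146 from the gene's start. On either strand CTTTGAT was found in 1.3% of the guidance gene promoters, beside 3.22% of protein-coding promoters and 3.73% of 32851 promoters in all. A second sequence searched for, AGGTCA, was found in the Ntn5 region on the minus strand at position -19. It was found in 14.3% of the guidance gene promoters, beside 14.7% of protein-coding promoters and 16.3% of promoters in all. The regions of Slit3 and Unc5a, also higher in KO cells on both days but not shown, held 41 and 37 CpG sites. In the regions of Slit2, Slit3 and Unc5a neither sequence was found. No methylation was measured here, and a match of letters is a description of the sequence alone.

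Dkk-treated KO cells had levels 2-fold or more lower than untreated KO cells of Nrp2, Sema3a and Ntn5 on both days, and on day 10 also of Nrp1, the 3 Slit genes and Ntn1. Of 6 class 3 semaphorins compared, 2 were lower on each day (Sema3a and Sema3c on day 10, Sema3a and Sema3e on day 6). By contrast, Sema3c had a log2 ratio of 0.63 on day 6 and Sema3f ratios of 0.42 on day 10 and 0.16 on day 6. Of 67 guidance genes, 2 were 2-fold or more higher and 15 lower with Dkk on day 10, beside 1.7% and 5.23% of all genes. On day 6, 1 was higher and 5 lower, beside 2.18% and 3.58% of all genes. On both days 0 were higher and 3 lower (Nrp2, Ntn5 and Sema3a), beside 0.364% and 1.56% of all genes. Ntn5 passed the 1 RPKM limit through the KO library of day 10 alone, and Sema3e through that of day 6 alone. Their direction there was set by the limit, and they lend no support to these counts. This comparison uses the same untreated KO libraries as that of KO with WT cells, so the values of both are given side by side and the overlap of the lists is not counted.

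Nrp2, with the values above, had log2 ratios of KO plus Dkk over KO of -1.92 on day 10 (counting interval -2.13 to -1.91) and -1.75 on day 6 (-2.12 to -1.68). Sema3a, a secreted repellent that binds neuropilin-1, was at 2.83, 9.27 and 7.22 RPKM in KO plus Dkk, KO and WT cells on day 10, and at 2.5, 9.56 and 1.52 RPKM in KO plus Dkk, KO and WT cells on day 6. Sema3a in Dkk-treated cells was below WT cells on day 10 and above them on day 6. In FBS culture Sema3a was at 1.04 RPKM in overexpressing and 1.73 in control cells on day 7, and at 0.44 and 0.28 RPKM in overexpressing and control cells on day 4.

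Nrp1, the neuropilin of Sema3a and of a vascular growth factor, was at 5.31, 18.62 and 12.07 RPKM in KO plus Dkk, KO and WT cells on day 10, and at 5.72, 11.86 and 8.96 RPKM in KO plus Dkk, KO and WT cells on day 6. The Dkk-treated library was the lowest on each day, and its log2 ratio over KO was -1.72 on day 10 and -0.99 on day 6. In FBS culture Nrp1 was at 6.41 RPKM in overexpressing and 49.07 in control cells on day 7, and at 1.60 and 0.98 RPKM in overexpressing and control cells on day 4.

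The other genes 2-fold or more lower with Dkk on day 10 were Sema3c, Ntn1, Slit1, Slit2, Slit3, Unc5a, Sema5a, Epha8, Plxnd1, Plxna2 and Ntng1. Their log2 ratios ran from -1.78 for Sema3c to -1.03 for Ntng1, a netrin-G held on the membrane. On day 6 the others were Sema3e at 0.51 RPKM in KO plus Dkk and 5.20 in KO cells, and Efna1 at 0.46 and 1.53 RPKM in KO plus Dkk and KO cells. Higher with Dkk were Efna2, an ephrin-A ligand, at 29.10 RPKM in KO plus Dkk and 13.55 in KO cells on day 10, and Epha2, a receptor of ephrin-A, at 5.90 and 2.13 RPKM in KO plus Dkk and KO cells on day 10. On day 6 it was Efna5, another ephrin-A ligand, at 25.10 and 9.36 RPKM in KO plus Dkk and KO cells.

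**Figure D4:**
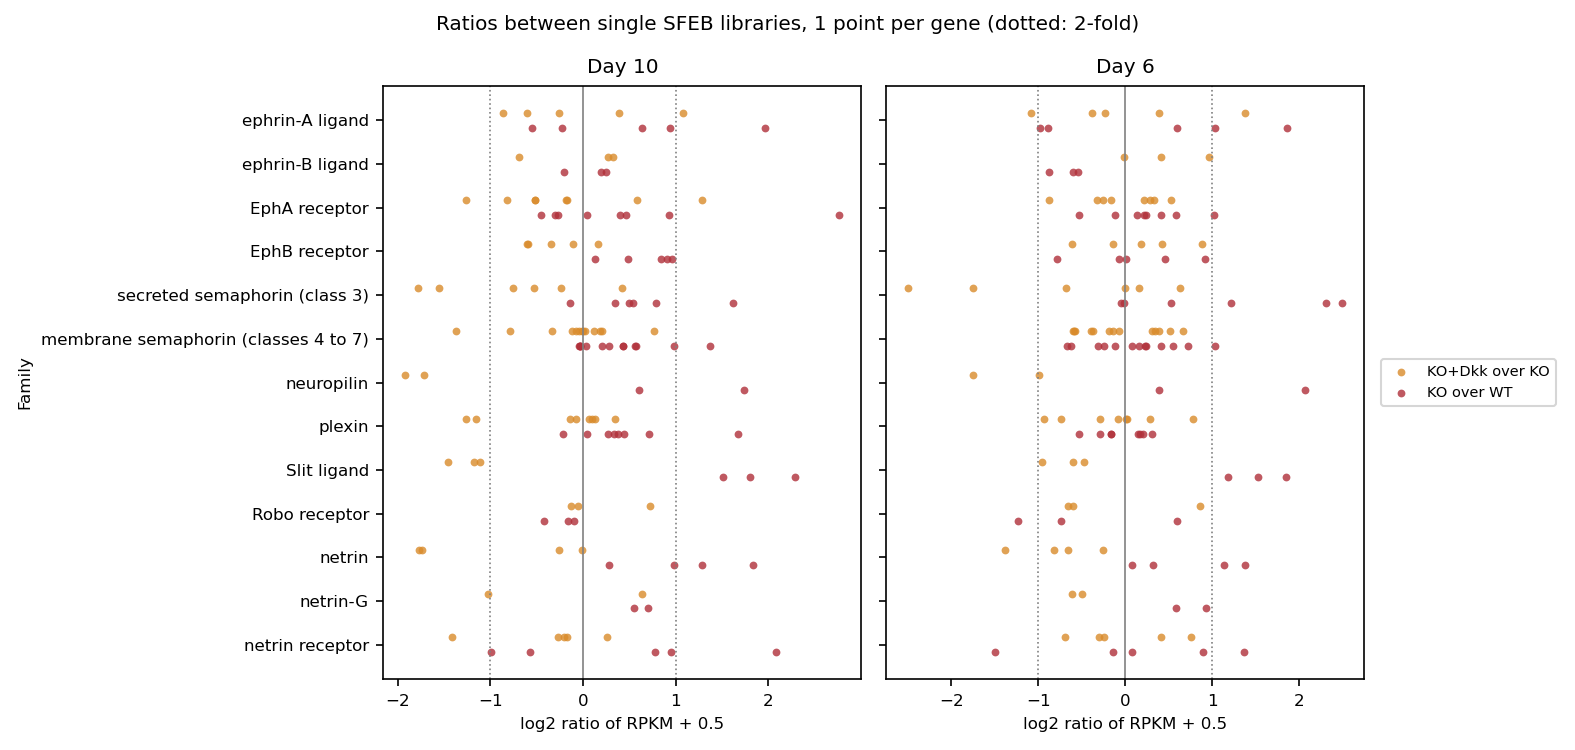
Log2 ratios of RPKM + 0.5 between single SFEB libraries on day 10 (left) and day 6 (right), 1 point per guidance gene, in rows by family, with KO plus Dkk over KO in orange and KO over WT in red and dotted lines at 2-fold. The 3 Slit genes lie at 1.18 or more in KO over WT on each day, and at -1.11 or less in KO plus Dkk over KO on day 10. The KO libraries enter both ratios.

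Set against WT cells, Dkk-treated KO cells differed by 2-fold or more in 7 guidance genes on day 10 and in 2 on day 6. On day 10 this was 7.46% of guidance genes higher and 2.99% lower. Both shares rest on few genes and were not tested against those of all genes. On day 6 it was 1.49% in each direction. On day 10, 5 of 67 were 2-fold or more higher (Epha8, Ntng2, Slit1, Efna3 and Epha2) and 2 lower (Sema3a and Nrp1), beside 4.6% and 1.69% of all genes. Epha8 reached 1 RPKM in SFEB culture in KO libraries of day 10 alone, with and without Dkk. It lends no support to that count. With a pseudocount of 1 Epha2 fell short of 2-fold. On day 6, 1 was higher (Slit3, at 5.12 RPKM in KO plus Dkk and 1.65 in WT cells) and 1 lower (Robo3, at 1.23 and 5.70 RPKM in KO plus Dkk and WT cells), beside 1.59% and 0.984% of all genes. On both days there were 0 in either direction, beside 0.496% higher and 0.302% lower of all genes.

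The limma model called 0 of 69 guidance genes for KO plus Dkk over KO, where 0.0145% of all genes were called higher and 0.0291% lower, and 0 for KO plus Dkk over WT, where 0.0% of all genes were called in each direction. At an unadjusted p under 0.05 there were 16 guidance genes for KO plus Dkk over KO, beside 5.76% of all genes, and 11 for KO plus Dkk over WT, beside 10.3%. The effect of Dkk was -1.84 for Nrp2 (SE 0.56, limma adjusted p = 0.617) and -1.65 for Sema3a (SE 0.51, limma adjusted p = 0.621). The sum of 14 fibroblast and matrix markers was 87.64 RPKM in KO plus Dkk and 752.44 in KO cells on day 10, and 24.65 and 70.05 RPKM in KO plus Dkk and KO cells on day 6. The sum of 12 paraxial mesoderm markers was 22.73 RPKM in KO plus Dkk and 295.1 in KO cells on day 6. That of 8 floor plate markers was 50.35 and 92.64 RPKM in KO plus Dkk and KO cells on day 10. Of these 8, 2 were 2-fold or more lower (Shh and Spon1) and 1 was higher (Lmx1a). Spon1 was at 11.87 and 61.55 RPKM, and Lmx1a at 25.4 and 3.29 RPKM, in KO plus Dkk and KO cells on day 10. The part of these marker lists in the guidance genes' differences was not tested. The Dkk-treated library of day 10 had the highest estimated depth of the SFEB culture, 36800000 reads, against 10900000 in KO and 11200000 in WT cells.

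In FBS culture, Tet3-overexpressing cells had lower levels than control cells of the repulsive netrin receptor Unc5b, the ephrin Efna1 and the plexin Plxnd1 on both days. Of 56 guidance genes compared, 8 were 2-fold or more higher and 17 lower in overexpressing cells on day 7, beside 6.96% and 11.1% of all genes. Unc5c, Robo2, Robo4, Sema3g and Ntn3 (lower) passed the 1 RPKM limit through the control library of day 7 alone. Slit1 (higher) passed through the overexpressing library of day 7 alone. The limit set their direction, and they lend no support to these counts. On day 4, 0 were higher and 6 lower (Epha1, Efna1, Unc5b, Sema6a, Efna3 and Plxnd1), beside 1.72% and 3.49% of all genes. On both days 0 were higher and 3 lower, beside 0.807% and 0.912% of all genes. The median log2 ratio of guidance genes was -0.56 on day 7 and -0.29 on day 4, beside -0.03 and -0.07 over all genes.

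Unc5b was at 24.10 RPKM in overexpressing and 71.69 in control cells on day 7, and at 15.91 and 42.17 RPKM in overexpressing and control cells on day 4. The log2 ratios were -1.55 on day 7 (counting interval -1.64 to -1.5) and -1.38 on day 4 (-1.48 to -1.33), and the additive effect was -1.47 (SE 0.15, limma adjusted p = 0.083, with a range of 0.041 to 0.56 over 9 settings). In SFEB culture Unc5b was at 4.77, 5.87 and 2.80 RPKM in KO plus Dkk, KO and WT cells on day 10, and at 4.22, 5.32 and 2.62 RPKM in KO plus Dkk, KO and WT cells on day 6. Every FBS library was above every SFEB library. The start region of Unc5b is shown because the gene was lower in overexpressing cells on both days, with CpG sites in capitals and the source and build as above. It held 36 CpG sites.
Unc5b promoter, chr10:60831532-60831831, minus strand: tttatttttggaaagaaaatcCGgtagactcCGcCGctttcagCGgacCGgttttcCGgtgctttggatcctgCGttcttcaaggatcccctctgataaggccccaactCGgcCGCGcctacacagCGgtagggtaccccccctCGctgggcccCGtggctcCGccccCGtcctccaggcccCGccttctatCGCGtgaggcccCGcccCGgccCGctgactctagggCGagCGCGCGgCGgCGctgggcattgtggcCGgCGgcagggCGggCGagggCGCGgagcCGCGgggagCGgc

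Efna1, an ephrin-A ligand of endothelium and epithelium, was at 4.35 RPKM in overexpressing and 23.33 in control cells on day 7, and at 1.85 and 5.86 RPKM in overexpressing and control cells on day 4. In SFEB culture Efna1 was at 1.48, 2.51 and 1.07 RPKM in KO plus Dkk, KO and WT cells on day 10, and at 0.46, 1.53 and 0.06 RPKM in KO plus Dkk, KO and WT cells on day 6. Its log2 ratio of overexpression over control was -2.30 on day 7 and -1.44 on day 4.

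Plxnd1, a plexin known from the developing vasculature, was at 2.61 RPKM in overexpressing and 18.72 in control cells on day 7, and at 1.22 and 3.09 RPKM in overexpressing and control cells on day 4, with log2 ratios of -2.63 on day 7 and -1.06 on day 4. In SFEB culture Plxnd1 was at 2.04, 5.58 and 1.41 RPKM in KO plus Dkk, KO and WT cells on day 10, and at 2.16, 4.56 and 4.00 RPKM in KO plus Dkk, KO and WT cells on day 6. Control cells on day 7 were its highest library.

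Efnb3, an ephrin-B ligand that serves as a midline barrier to axons, was at 2.58 RPKM in overexpressing and 30.72 in control cells on day 7, and at 0.99 and 2.17 RPKM in overexpressing and control cells on day 4. In SFEB culture Efnb3 was at 41.47, 34.43 and 28.84 RPKM in KO plus Dkk, KO and WT cells on day 10, and at 34.90, 17.63 and 32.73 RPKM in KO plus Dkk, KO and WT cells on day 6. The control library of day 7 was the one FBS library within the range of the SFEB libraries, and the day 7 ratio was -3.34 on the log2 scale.

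Further genes 2-fold or more lower in overexpressing cells on day 7 were Unc5c at 0.44 RPKM in overexpressing and 10.48 in control cells, Nrp1 and Nrp2 with the values above, and Efnb1 at 4.91 and 31.08 RPKM in overexpressing and control cells. Slit3, Robo2, Robo4, Sema3f, Sema3g, Sema4c, Ntn3, Ephb2 and Sema5a were also lower, with log2 ratios of -2.44 for Slit3 to -1.0 for Sema5a, which lies on the 2-fold limit. Unc5c, Robo2, Robo4, Sema3g and Ntn3 passed the 1 RPKM limit through the control library of day 7 alone, and with a pseudocount of 1 Robo4, Sema3g, Ntn3 and Sema5a fell short of 2-fold. Both neuropilins and the ligands Efnb1 and Efnb3 had in common that the control library of day 7 was far above the other 3 FBS libraries. For Unc5c, which passed through that library alone, the same order was set by the limit.

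Genes 2-fold or more higher in overexpressing cells on day 7 were Ntn1, Sema3e, Slit1, Sema4a, Epha1, Epha2, Sema6a and Sema4d, with log2 ratios of 2.55 for Ntn1 to 1.20 for Sema4d. Slit1 passed the 1 RPKM limit through the overexpressing library of day 7 alone. Epha2 was at 42.80 RPKM in overexpressing and 15.60 in control cells on day 7, and at 59.38 and 53.18 RPKM in overexpressing and control cells on day 4. In SFEB culture Epha2 was at 5.90, 2.13 and 2.68 RPKM in KO plus Dkk, KO and WT cells on day 10, and at 4.46, 5.05 and 3.21 RPKM in KO plus Dkk, KO and WT cells on day 6. Every FBS library lay above every SFEB library.

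Epha1, the founding member of the Eph family, was at 17.22 RPKM in overexpressing and 5.44 in control cells on day 7, and at 7.16 and 38.87 RPKM in overexpressing and control cells on day 4. Its direction differed between the days, with log2 ratios of 1.58 on day 7 and -2.36 on day 4. In SFEB culture Epha1 was at 0.66, 0.81 and 1.29 RPKM in KO plus Dkk, KO and WT cells on day 10, and at 4.93, 6.32 and 2.87 RPKM in KO plus Dkk, KO and WT cells on day 6. Sema6a, a membrane semaphorin, also changed sides, at 9.62 RPKM in overexpressing and 3.88 in control cells on day 7, and at 4.43 and 11.72 RPKM in overexpressing and control cells on day 4. Zyx, which overlaps Epha1, was at 17.56 to 51.75 RPKM in the FBS libraries, and reads of the overlapping genes were not told apart here.

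**Figure D5:**
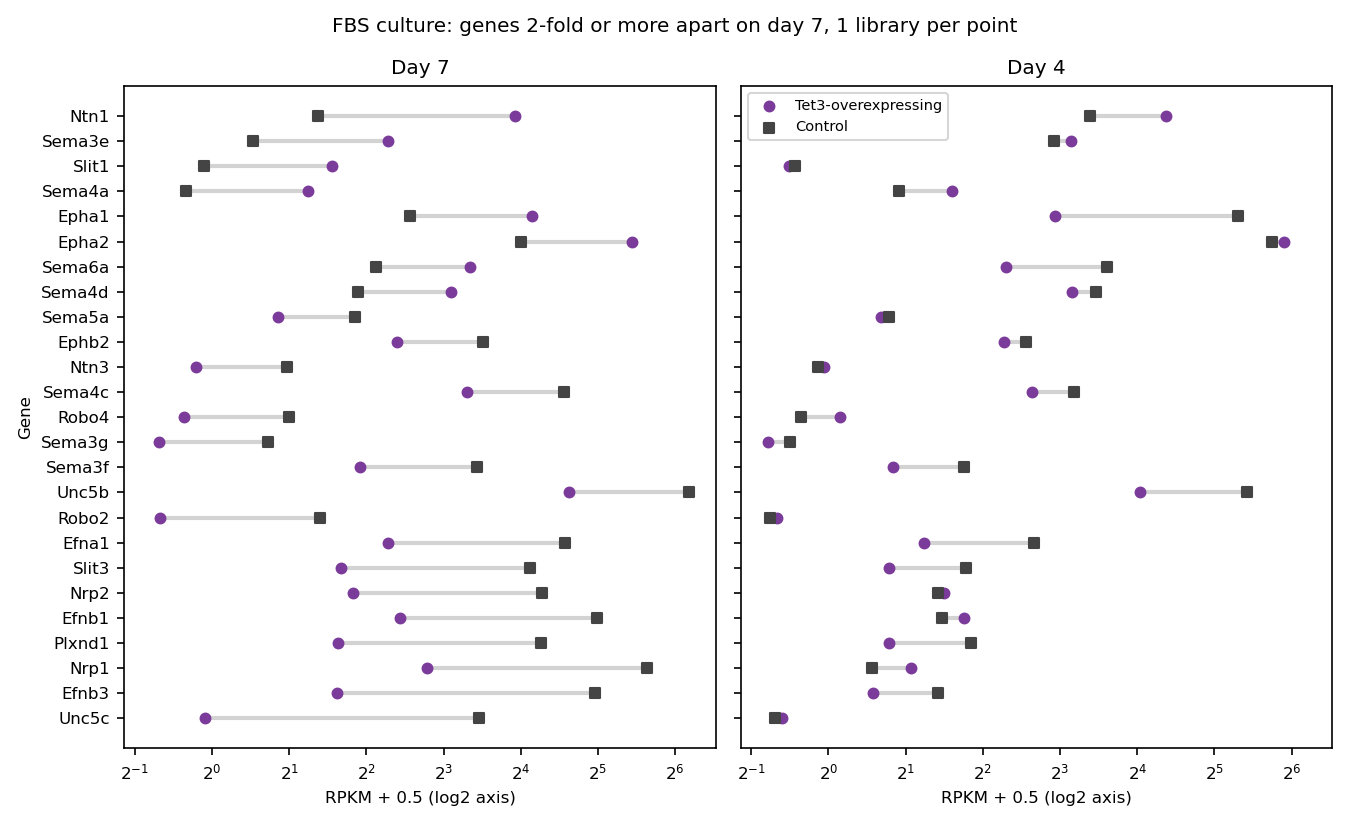
RPKM + 0.5 on a log2 axis in Tet3-overexpressing (circles) and control cells (squares) on day 7 (left) and day 4 (right), for the 25 guidance genes 2-fold or more apart on day 7, 1 library per point. Unc5b, Efna1 and Plxnd1 keep the circle 2-fold or more below the square on both days, and Epha1 and Sema6a change sides.

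The limma model called 0 of 69 guidance genes for overexpression over control, where 0.0145% of all genes were called higher and 0.00727% lower, and 20 had an unadjusted p under 0.05, beside 18% of all genes. Between the days of FBS culture, 13 of 56 guidance genes were 2-fold or more higher and 0 lower on day 7 than on day 4 in overexpressing cells, beside 3.5% and 1.2% of all genes. In control cells 22 were higher and 9 lower, beside 11.5% and 8.73% of all genes. Some of these genes passed the 1 RPKM limit through a single library, which set their direction. They were Slit1 in overexpressing cells, and in control cells Ephb1, Ntn3, Robo2, Robo4, Sema3g and Unc5c (higher) and Epha8 (lower). These genes lend no support to the counts. The model's effect of day 7 over day 4 called 0 guidance genes, with 26 at an unadjusted p under 0.05, beside 16.7% of all genes, and 0.109% of all genes called higher and 0.0% lower.

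Marker lists also differed between the FBS libraries. The summed RPKM of 12 endothelial markers was 35.50 in overexpressing and 171.71 in control cells on day 7, and 22.54 and 27.02 in overexpressing and control cells on day 4, with 10 of 12 genes 2-fold or more lower on day 7. The sum of 14 fibroblast and matrix markers was 63.93 in overexpressing and 482.66 in control cells on day 7, and 132.48 and 80.91 in overexpressing and control cells on day 4. Of these 14, 11 were lower and 1 (Col6a2) was higher on day 7. The sum of 10 pluripotency markers was 2449.30 in overexpressing and 934.53 in control cells on day 7, and 3712.54 and 3394.58 in overexpressing and control cells on day 4. The sum of 15 neuron markers was 233.79 in overexpressing and 47.83 in control cells on day 7, and 281.17 and 170.11 in overexpressing and control cells on day 4, with 7 of 8 compared higher and 1 lower on day 7. The sum of 12 neural progenitor markers was 324.47 in overexpressing and 720.63 in control cells on day 7, and 270.18 and 299.85 in overexpressing and control cells on day 4. Of 10 compared, 6 were higher and 1 (Vim) was lower on day 7, with a median log2 ratio of 1.62. Vim was at 140.99 RPKM in overexpressing and 631.36 in control cells on day 7, and so made up most of the control sum. Kdr, an endothelial receptor, was at 5.05 RPKM in overexpressing and 36.28 in control cells on day 7. Of the endothelial list 0 markers were at 0 on day 7, and the part of these cell types in the guidance genes' differences was not tested.

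Of 26 other cues and co-receptors compared in SFEB culture, 2 were 2-fold or more higher and 0 lower in KO than in WT cells on day 10, while on day 6 the counts were 2 and 1. All genes had 8.28% higher and 1.96% lower on day 10, and 4.89% and 2.18% on day 6. Cxcl12, a chemokine that guides migrating cells, was at 4.31, 24.76 and 2.10 RPKM in KO plus Dkk, KO and WT cells on day 10, and at 1.79, 7.06 and 0.74 RPKM in KO plus Dkk, KO and WT cells on day 6. Flrt2, a membrane protein that binds Unc5 receptors, was at 4.93, 15.42 and 4.20 RPKM in KO plus Dkk, KO and WT cells on day 10, and at 0.46, 1.94 and 0.55 RPKM in KO plus Dkk, KO and WT cells on day 6. KO was the highest library for both on each day.

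Fzd3, a Frizzled receptor needed for axon tracts, was at 21.47, 20.75 and 28.28 RPKM in KO plus Dkk, KO and WT cells on day 10, and at 20.03, 12.20 and 22.50 RPKM in KO plus Dkk, KO and WT cells on day 6. Flrt1, a relative of Flrt2, was at 1.92, 0.90 and 0.48 RPKM in KO plus Dkk, KO and WT cells on day 10, and at 2.46, 0.30 and 2.56 RPKM in KO plus Dkk, KO and WT cells on day 6. With Dkk, 2 of the 26 genes were 2-fold or more higher and 3 lower than in KO cells on day 10, beside 1.7% and 5.23% of all genes, while on day 6 the counts were 2 and 2, beside 2.18% and 3.58%.

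Of 35 intracellular guidance effectors, 1 was 2-fold or more higher and 0 lower in KO than in WT cells on day 10, beside 8.28% and 1.96% of all genes, while on day 6 the counts were 0 and 2, beside 4.89% and 2.18%. Dock1, an activator of the small GTPase Rac that acts downstream of Dcc, was at 5.5, 10.11 and 3.64 RPKM in KO plus Dkk, KO and WT cells on day 10, and at 14.69, 16.18 and 9.42 RPKM in KO plus Dkk, KO and WT cells on day 6. Pak3, a kinase activated by Rac, was at 10.25, 14.01 and 21.30 RPKM in KO plus Dkk, KO and WT cells on day 10, and at 2.42, 0.72 and 1.66 RPKM in KO plus Dkk, KO and WT cells on day 6. Mical1, an actin-oxidising enzyme that binds plexins, was at 13.91, 13.49 and 9.36 RPKM in KO plus Dkk, KO and WT cells on day 10, and at 14.39, 20.25 and 12.39 RPKM in KO plus Dkk, KO and WT cells on day 6. Between KO plus Dkk and KO cells the effectors 2-fold or more higher numbered 0 on day 10 and 3 on day 6, beside 1.7% and 2.18% of all genes. On either day 0 were lower, beside 5.23% on day 10 and 3.58% on day 6.

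With Dkk the largest differences of one direction on both days were small among effectors. Gipc1, an adaptor that binds neuropilin-1, was at 67.78 RPKM in KO plus Dkk and 52.38 in KO cells on day 10, and at 63.41 and 48.36 RPKM in KO plus Dkk and KO cells on day 6. Ngef, an exchange factor that acts downstream of EphA receptors, was at 2.16 RPKM in KO plus Dkk and 1.57 in KO cells on day 10, and at 2.11 and 0.71 RPKM in KO plus Dkk and KO cells on day 6. Farp2, an exchange factor bound to plexin-A1, was at 1.16 RPKM in KO plus Dkk and 1.82 in KO cells on day 10, and at 1.20 and 1.56 RPKM in KO plus Dkk and KO cells on day 6.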

How the data were processed

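RNA of 10 libraries was analysed, 1 per condition and day, and titles gave the condition. RPKM values for 21937 gene symbols, with 2 decimals, are what the authors deposited. Per the submitters' processing notes, HTSeq and the mouse build mm9 were used; the strand setting, annotation and aligner were not given in the sources used here, so values of overlapping genes are uncertain. Since RPKM divides by the library total, abundant transcripts lower all others.

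Ratios were differences of log2(RPKM + 0.5) between single libraries, which understate changes of low genes, over genes that reached 1 RPKM in any library of the same culture (12912 in SFEB, 12387 in FBS), with a 2-fold limit (exact 2-fold included, on ratios kept to 9 decimals) and no test. The additive model was fitted with limma 3.58.1 in R 4.3.3 on 13757 genes, with p-values adjusted by Benjamini and Hochberg. Reads were estimated from the steps between low RPKM values, with transcript lengths of GENCODE vM21, and gave 95% Clopper-Pearson intervals. Promoter sequences are from RefSeq on GRCm38.p6, and no coordinates were converted.

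Genes named in every library were those 2-fold apart in 1 direction on both days in KO over WT, KO plus Dkk over KO or overexpression over control, the 5 with the highest mean, and those 20-fold or more between lowest and highest library on the RPKM + 0.5 scale. From each of the other pathway lists, the 3 with the largest smaller ratio of both days were named. Members and lists were chosen with earlier results of these data known. The alternatives were pseudocounts of 0.1 and 1, no filter and a filter of 5 RPKM, TPM scaling, median-ratio scaling, each culture alone and a mean-variance trend.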

Additional observations from a re-analysis of the deposited data

Results flagged for a closer look

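In FBS culture the difference between overexpressing and control cells had opposite signs on the 2 days for Epha1, with log2 ratios of 1.58 on day 7 and -2.36 on day 4, and for Sema6a, with 1.21 on day 7 and -1.31 on day 4. The same 4 libraries gave opposite signs for the day: Epha1 had a log2 ratio of day 7 over day 4 of 1.21 in overexpressing and -2.73 in control cells, and Sema6a one of 1.04 in overexpressing and -1.48 in control cells. In SFEB culture Sema3c had a log2 ratio of day 10 over day 6 of -1.03 in KO plus Dkk cells and 1.37 in KO cells. With 1 library per condition and day, these differences between effects were not tested.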

How the results depend on the processing

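None of the values checked under the alternatives changed direction. The check did not cover every ratio of a named gene given above, and ratios near 0 may change sign with the scaling. The counts of guidance genes 2-fold or more apart that moved by over 1.5 times were these. A pseudocount of 0.1 gave 12 for KO plus Dkk over KO on day 6 (6 at 0.5), 9 for KO plus Dkk over WT on day 6 (2 at 0.5), 12 for overexpression on day 4 (6 at 0.5), and on both days 7 for KO plus Dkk over KO, 2 for KO plus Dkk over WT and 7 for overexpression, against 3, 0 and 3. TPM scaling gave 5 for KO plus Dkk over WT on day 6 and 10 for overexpression on day 4, and on both days 5 for KO plus Dkk over KO, 1 for KO plus Dkk over WT and 6 for overexpression. For day 7 over day 4 in control cells (31), a pseudocount of 1 gave 20 and a filter of 5 RPKM gave 18. TPM scaling shifted the median of all genes by 0.10 in day 10 over day 6 of WT and KO cells and by -0.12 in KO plus Dkk over WT on day 10. Of limma calls, KO over WT had 1 (Ntn5) with a pseudocount of 0.1 and 1 (Nrp2) with each culture alone, overexpression had 1 (Unc5b) with no filter and 1 with a mean-variance trend, and day 10 over day 6 had 22 with no filter, against 34. Under TPM scaling the values of every library rose while the pseudocount of 0.5 and the limit of 1 were kept, so both weighed less. The cause of these moves was not tested. With a pseudocount of 1 these calls fell short of 2-fold: for KO over WT Efna3, Epha1, Ntn5, Sema3b and Sema6a on day 6, for KO plus Dkk over KO Efna1 and Ntn5 on day 6 and Ntng1 on day 10, for KO plus Dkk over WT Epha2 on day 10, and for overexpression over control Plxnd1 on day 4 (-0.88) and Ntn3, Robo4, Sema3g and Sema5a on day 7.

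No paired analysis was possible because each condition and day has 1 library and the labels give no replicate numbers. For the same reason no replicate could be left out. Low genes rest on few reads, such as Ntn5 with an estimated 13 reads in KO cells on day 6.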
